A study of Mus musculus with 37 samples.

Results

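The EGF receptor family was described here by 9 genes in bulk RNA of mouse pancreatic tumours: the receptors Egfr, Erbb2 and Erbb3, the EGF receptor ligands Areg, Ereg, Hbegf, Btc and Tgfa, and the neuregulin Nrg1. They were chosen by symbol, and 9 of 9 were found among the 39017 genes of the deposited count table. The 37 libraries came from tumours taken 3 weeks after pancreatic tumour clones had been placed under the skin of C57BL/6 mice, which received no treatment. By label, the T cell high group has 15 tumours (7 clones), the intermediate group 4 (2 clones) and the low group 15 (7 clones). A further 3 tumours, of clones bulk_6883c1, bulk_6883c4 and bulk_7062c3, have no phenotype label and entered no comparison. The labels used here do not say how the clones were made, which alleles they carry, how old the mice were or how the phenotype was measured. Each line is 1 clone, so tumours of 1 clone are repeats of the same implanted cells and the clone was taken as the replicate of a phenotype. The tumours are named by clone and by the number that ends their title.

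Ligands of the EGF receptor are made as membrane-anchored precursors, which metalloproteases cut to set the growth factor free. Binding of a ligand pairs receptors of the family and starts their tyrosine kinase activity, which passes through Grb2, Sos and Ras to the MAP kinases. Erbb2 has no known soluble ligand and serves as the preferred partner of the other receptors, whereas Erbb3 binds neuregulins but has little kinase activity of its own.

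Areg, Ereg and Btc lie within 1 stretch of chromosome 5 (GRCm38, which is mm10, with GENCODE M21 annotation). Epgn, another ligand gene, starts the row at position 91027464 on the plus strand, followed by Ereg at 91074622 to 91093646 and Areg at 91139599 to 91148432 on the same strand. Btc spans 91357261 to 91402994 on the minus strand, 208.8 kb beyond Areg, while the gap between Ereg and Areg is 46.0 kb. The other members are spread out, with Egfr at 16752203 to 16918158 and Erbb2 at 98412470 to 98437716 on chromosome 11, Erbb3 on chromosome 10, Tgfa on chromosome 6 and Nrg1 on chromosome 8. Exons of Ereg, Tgfa and Nrg1 overlap non-coding genes on the other strand and 9 bases of Erbb2 overlap Mien1, and the strand setting of the counting is not given, so reads from these overlaps cannot be assigned.

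Because Areg and Btc varied together among the clones, the 250 bases before the start of each are shown from RefSeq (GRCm38.p6). The window of Areg is chr5:91139349-91139598 on the plus strand and that of Btc is chr5:91402995-91403244 on the minus strand. The windows were searched on both strands for 6 motifs: AP-1 (TGANTCA), the cAMP response element (TGACGTCA), the Sp1 core (GGGCGG), the TATA box (TATAAA), NF-kB and the E-box (CACGTG). Capitals mark matches to AP-1, the cAMP response element, the Sp1 core and the TATA box. Neither window held a match to NF-kB or the E-box. RefSeq windows were matched for 5 of the 9 members.
Areg: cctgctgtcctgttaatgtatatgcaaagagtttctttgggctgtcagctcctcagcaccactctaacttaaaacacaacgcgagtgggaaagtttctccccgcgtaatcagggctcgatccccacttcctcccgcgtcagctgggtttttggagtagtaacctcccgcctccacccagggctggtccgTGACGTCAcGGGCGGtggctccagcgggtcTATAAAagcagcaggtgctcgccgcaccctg
Btc: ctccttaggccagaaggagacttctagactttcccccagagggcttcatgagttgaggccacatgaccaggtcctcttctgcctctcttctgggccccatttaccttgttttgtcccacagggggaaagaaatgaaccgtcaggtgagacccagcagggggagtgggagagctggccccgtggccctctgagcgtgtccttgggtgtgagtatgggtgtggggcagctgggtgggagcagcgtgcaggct
The Areg window holds 1 cAMP response element at position -61 from the start, 1 Sp1 core at -52 and 1 TATA box at -31, with no overlap between them. The Btc window holds none of these letters. Of all 32851 windows of this length, 1.5% hold the cAMP response element, 32.7% the Sp1 core and 12.4% the TATA box. A cAMP response element is the site known to bind CREB proteins, and a match of letters does not show binding.

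The 34 libraries with a phenotype held 7.39 to 102.33 M counts (median 31.8 M). All 16 tumours numbered 1, and tumour 2 of clone bulk_2669c4, held liver and heart transcripts: the sum of the heart myosins Myh6 and Myh7 and the liver genes Cps1 and Serpina3k was at least 258 CPM (counts relative to the total of the library) in these 17 libraries. In the other 17 libraries it was at most 0.539 CPM. These are called libraries without liver and heart transcripts by these 4 genes alone, and sums of longer marker lists are given further on. Each phenotype contained both kinds of library (7 with and 8 without among high tumours, 2 and 2 among intermediate, 8 and 7 among low), and clone bulk_6422c1 had only a tumour numbered 1. Moreover, 6 tumours numbered 1 from 6 clones (high bulk_2838c3, bulk_6499c4, bulk_6555c3 and bulk_6556c4, low bulk_6419c5 and bulk_6694c2) were nearly alike across all genes, taken as a chi-squared per gene under 10 with at least 1 other library. They form 2 sets, bulk_6556c4 with bulk_6694c2 and the other 4 libraries together, with 3.25 to 8.69 in the 7 pairs within sets and 19.18 to 35.85 between sets. Tumour 1 of bulk_6620c1 lay at 25.84 to 36.29 from these 6 and was not counted among them, although the closest pair of tumours of the same clone had 48.51. Differences of members between high and low clones are therefore given for all libraries and for those without liver and heart transcripts, and calls of members that change without the 6 alike libraries are named. Pathway genes are given for all libraries. The labelled tissue held ductal epithelial transcripts in every library: the summed level of 8 markers (Krt19, Krt7, Krt8, Krt18, Epcam, Cldn7, Cdh1 and Esrp1) was 3654 to 10700 CPM in high, 4575 to 7053 CPM in intermediate and 4634 to 9009 CPM in low tumours. The summed level of 4 T cell markers was 1.65 to 18.69 CPM (median 5.37) in high, 5.49 to 19.83 CPM (median 13.84) in intermediate and 0.758 to 7.08 CPM (median 2.52) in low tumours, so the groups overlap.

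All 3 member receptors and all 5 EGF receptor ligands were well expressed, and Nrg1 was low. Levels between genes were compared as CPM per kb of exon (CPM scaled by TMM, a factor that evens out library composition) over the 17 libraries without liver and heart transcripts. Hbegf, which also serves as the diphtheria toxin receptor in humans, had the highest mean level at 35.7 ± 20.4 CPM per kb (SD, n = 17). Areg followed at 32.5 ± 20.1, a difference smaller than either SD. Erbb2 had 21.7 ± 5.12 and Erbb3 16.6 ± 8.89 CPM per kb, a difference smaller than the SD of Erbb3. Btc had 11.4 ± 6.43 and Tgfa 9.56 ± 2.15 CPM per kb, and these 2 trade places when the longest transcript is used as the length. Egfr itself was lower, at 4.64 ± 1.93 CPM per kb, next to Ereg at 4.17 ± 2.04. Nrg1, a ligand of Erbb3, had 0.609 ± 0.277 CPM per kb. The rest of the family was at or below that order of level: Nrg4 had 0.905 ± 0.388, Nrg2 0.310 ± 0.368, Egf 0.119 ± 0.0404 and Epgn 0.0617 ± 0.0361 CPM per kb. The receptor Erbb4 and the neuregulin Nrg3 came last, at 0.00912 ± 0.0196 and 0.0028 ± 0.0039 CPM per kb. Erbb4 counts in these libraries were 0 to 28, with a median of 1.

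**Figure D1:**
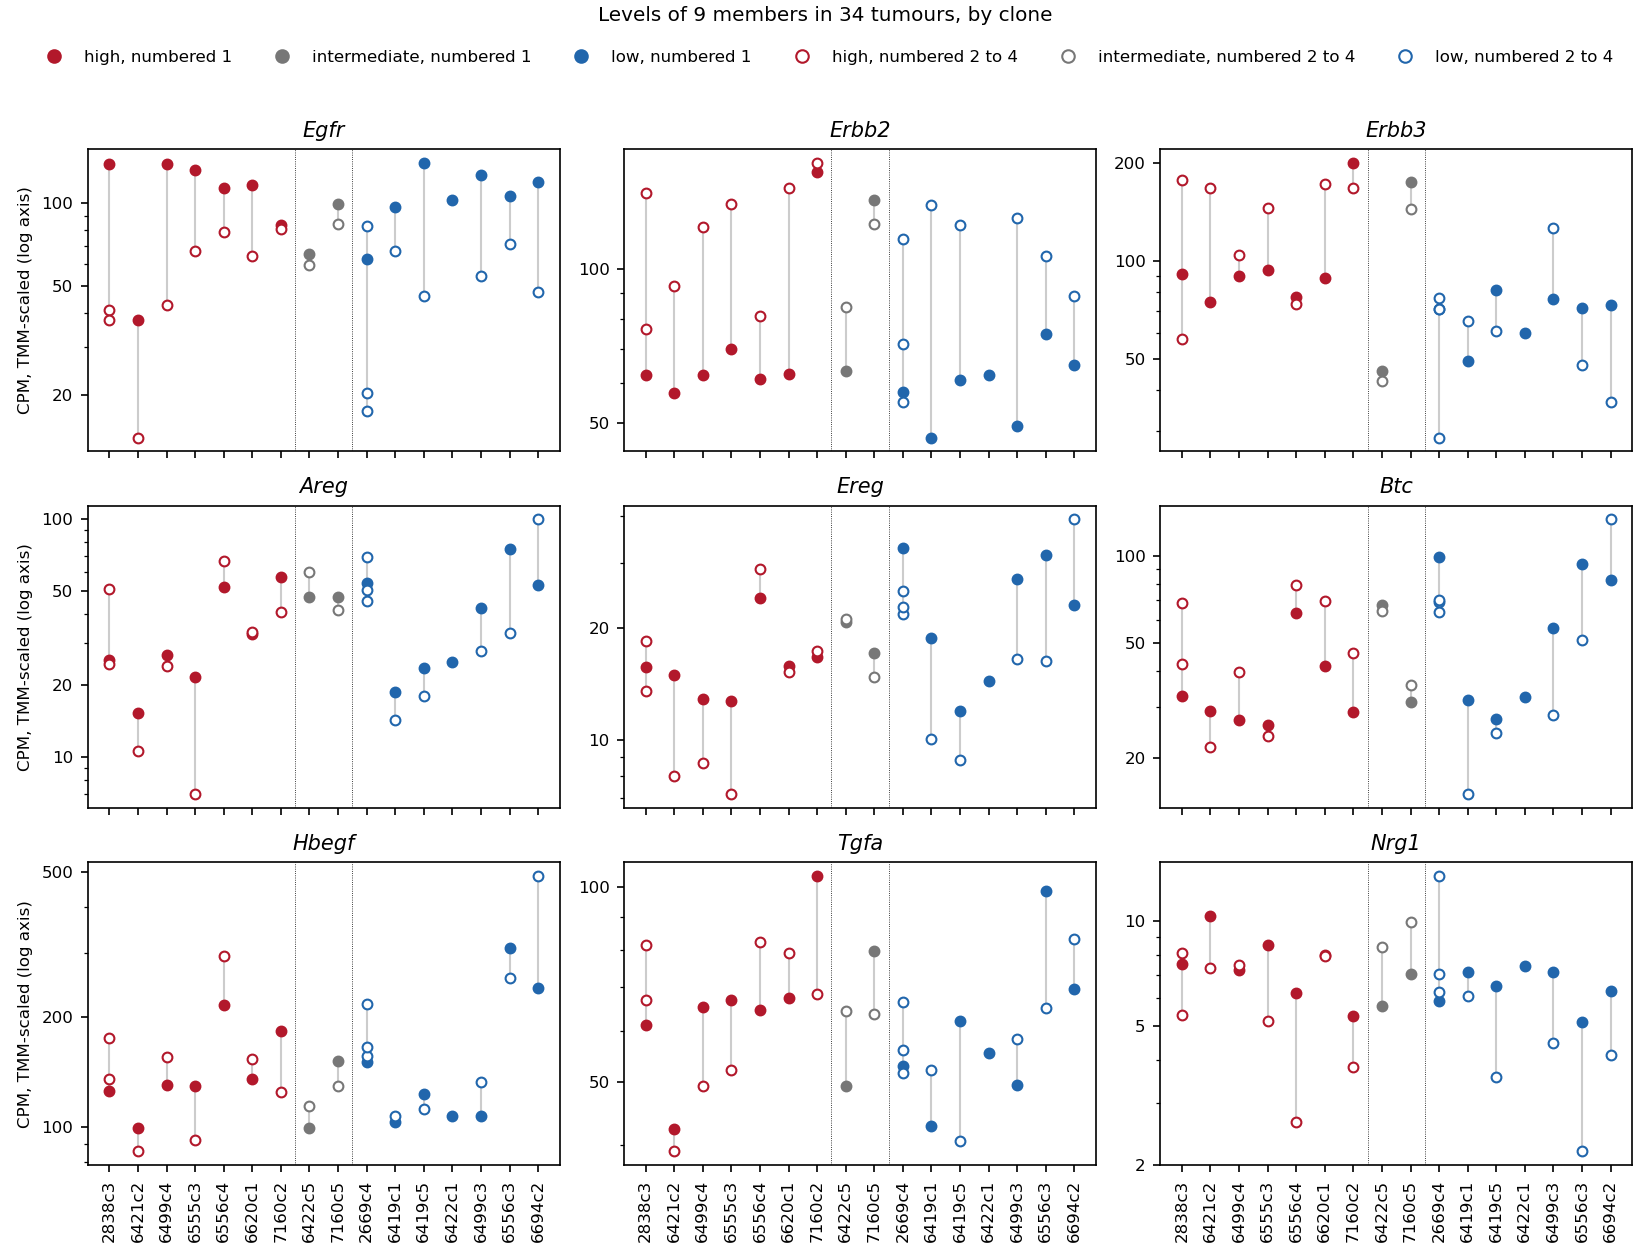
Levels of the 9 members in each of 34 tumours, as TMM-scaled CPM on log axes, by clone, with high clones at the left, intermediate clones between the dotted lines and low clones at the right (axis names leave out bulk_). Filled points are tumours numbered 1 and open points tumours numbered 2 to 4, and a grey line joins tumours of 1 clone. Within clones, Egfr is mostly higher and Erbb2 mostly lower in the filled points, while the ligands differ between clones of every phenotype.

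The series was set up to compare T cell high with T cell low tumours. None of the 9 members passed the threshold between high and low clones (adjusted p under 0.05, edgeR quasi-likelihood test on counts summed per clone, 7 against 7 clones), and 0% of the 20348 genes tested did. Without adjustment 1516 genes (7.45%) had a p under 0.05, and Erbb3 was the 1 member among them. The log2 difference was above 0 for 4 of the 9 members and for 50% of all genes. DESeq2 on the same sums called 24 genes, none of them a member. Because tumours are mixtures, fewer cells of a type and less RNA per cell cannot be told apart in any of these levels. The p-values measure the spread between clones, and the labels do not say how many mice carried the tumours. They take the clones as independent, although some, such as low clones bulk_6419c1 and bulk_6419c5, share the number before the letter c.

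Erbb3 had the largest difference of the members. Over all libraries the high clones had 193.5 (bulk_7160c2), 138.8 (bulk_6620c1), 137.1 (bulk_6421c2), 124.0 (bulk_6555c3), 103.0 (bulk_2838c3), 97.75 (bulk_6499c4) and 75.23 (bulk_6556c4) CPM, a range above most low clones. The low clones had 119.6 (bulk_6499c3), 71.23 (bulk_6419c5), 63.84 (bulk_2669c4), 58.63 (bulk_6556c3), 58.36 (bulk_6422c1), 58.09 (bulk_6694c2) and 56.56 (bulk_6419c1) CPM. The groups overlap through clone bulk_6499c3 alone among the low clones, which lies above 3 of the 7 high clones. The log2 difference was 0.84 (SE 0.26), with an adjusted p of 0.66 (unadjusted p 0.0053). Leaving out libraries with liver and heart transcripts gave 1.02 (SE 0.31, adjusted p 0.71, edgeR, 0% of 17905 genes called), from 133.7 ± 38.2 CPM in high clones (SD, n = 7) and 66.1 ± 31.0 CPM in low clones (SD, n = 6). Across all alternatives of this comparison the log2 difference of Erbb3 stayed between 0.57 and 1.02, with adjusted p-values of 0.062 to 0.95. Ductal markers moved with Erbb3 in these libraries as a mean of log2 CPM, but little as a sum of CPM. The mean log2 CPM of the 8 markers was 8.67 ± 0.61 in high clones (7.62 to 9.44, SD, n = 7) and 7.66 ± 0.59 in low clones (6.70 to 8.34, SD, n = 6), beside 7.0 ± 0.46 and 5.94 ± 0.58 for Erbb3 in high and low clones. Their summed CPM was 4447 to 10700 CPM (median 8352) in high tumours and 5621 to 8973 CPM (median 8063) in low tumours. The part of the ductal markers in the Erbb3 difference was not tested.

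The other receptors overlapped broadly. Egfr averaged 76.0 ± 24.1 CPM in high clones and 80.5 ± 19.7 CPM in low clones (SD, n = 7 each), a log2 difference of -0.08 (SE 0.25, adjusted p 0.95 by edgeR). Without the libraries that held liver and heart transcripts the sign of this difference turned, at 0.10 (SE 0.35). Within the high clones Egfr was lowest in bulk_6421c2, at 23.57 CPM, against 73.35 to 95.63 CPM in the other high clones. Erbb2 averaged 102.5 ± 28.3 CPM in high clones and 85.2 ± 17.0 CPM in low clones, and its log2 difference was 0.27 (SE 0.18, adjusted p 0.72 by edgeR).

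The EGF receptor ligands gave log2 differences between -0.35 and 0.15. Ereg, epiregulin, averaged 15.1 ± 5.94 CPM in high clones and 19.2 ± 6.66 CPM in low clones (SD, n = 7 each), a log2 difference of -0.35 (SE 0.26). Btc, betacellulin, averaged 42.2 ± 17.8 CPM in high clones and 51.3 ± 30.0 CPM in low clones (-0.28, SE 0.35). Areg, amphiregulin, averaged 32.9 ± 18.4 CPM in high clones and 38.3 ± 20.1 CPM in low clones (-0.22, SE 0.38). These 3 ligands had lower means in high clones, with differences smaller than the spread between clones. Hbegf averaged 151.3 ± 53.4 CPM in high clones and 176.0 ± 90.8 CPM in low clones (-0.22, SE 0.28). Tgfa averaged 66.8 ± 17.5 CPM in high clones and 60.1 ± 12.1 CPM in low clones (0.15, SE 0.17). Nrg1 had 0.20 (SE 0.20), from 6.68 ± 1.56 CPM in high clones and 5.82 ± 1.49 CPM in low clones (SD, n = 7 each). For each ligand the highest and the lowest clone of 1 phenotype differed by more than the phenotype means did. In libraries without liver and heart transcripts the differences were -0.41 for Ereg, -0.17 for Btc, -0.42 for Areg, -0.51 for Hbegf, 0.09 for Tgfa, 0.23 for Nrg1 and 0.08 for Erbb2, with the same signs.

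**Figure D2:**
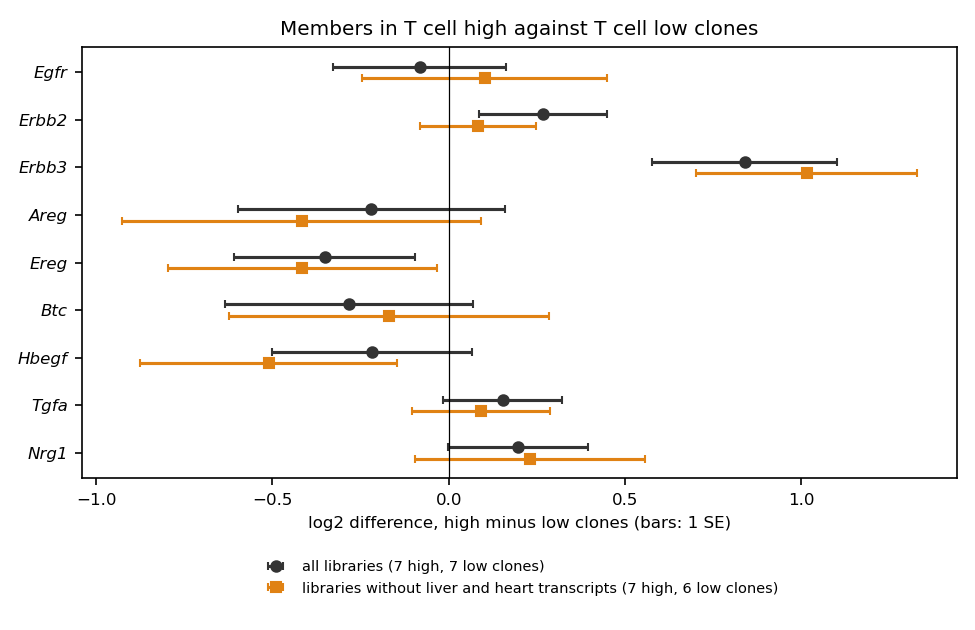
Difference of each member between high and low clones, as log2 difference with bars of 1 SE, in all libraries (circles, 7 high and 7 low clones) and in libraries without liver and heart transcripts (squares, 7 high and 6 low clones). Erbb3 lies at 0.84 and 1.02, and the other members lie between -0.51 and 0.27.

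Neither comparison with the 2 intermediate clones gave a called member. Between intermediate and low clones 0% of genes passed, with 3261 genes (16%) at an unadjusted p under 0.05 and none of them a member, and the member with the largest difference was Erbb3 at 0.62 (SE 0.38). Between high and intermediate clones 0% passed, with 2099 genes (10.3%) at an unadjusted p under 0.05 and no member, and the largest difference was that of Areg at -0.61 (SE 0.55). The 2 intermediate clones differed from each other: Erbb3 was 166.2 CPM in bulk_7160c5 and 46.97 CPM in bulk_6422c5, and Btc was 32.64 CPM in bulk_7160c5 and 69.88 CPM in bulk_6422c5. DESeq2 called 941 and 537 genes in these comparisons, with no member among them. Under the alternatives run on all 3 phenotype comparisons, 0 of 675 values of members passed.

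Of 40 listed pathway genes for ligand release, receptor inhibition, adaptors with Ras, and MAP kinase output, 0 were called between high and low clones by edgeR, and 1 had an unadjusted p under 0.05. In 3 of the lists the gene with the smallest p was Lrig3, a relative of the receptor inhibitor Lrig1 (0.98, SE 0.34, adjusted p 0.66), the MAP kinase-induced transcription factor Etv5 (0.32, SE 0.17, adjusted p 0.67) and the sheddase Adam17 (-0.21, SE 0.13, adjusted p 0.71). The median log2 difference of the 40 genes was 0.019, of the 9 members -0.083 and of all genes -0.0001.

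Levels of 4 ligands differed between clones by more than between tumours of the same clone. An F test over all 16 clones on counts per tumour, with a term for tumours numbered 1, called 25.8% of 20421 genes, and 5 of the 9 members: Hbegf (F 8.78, adjusted p 0.00043), Btc (F 6.42, adjusted p 0.0019), Areg (F 5.99, adjusted p 0.0026), Ereg (F 5.52, adjusted p 0.0038) and Erbb3 (F 3.12, adjusted p 0.039, edgeR). The first 4 of these kept an adjusted p under 0.05 in every alternative and whichever clone was left out. Erbb3 did not pass without the 6 alike libraries (adjusted p 0.082), without the term for tumours numbered 1 (0.065) or without clone bulk_2669c4, bulk_6419c1, bulk_6422c5, bulk_7160c2 or bulk_7160c5 in turn (adjusted p 0.052 to 0.098). Tgfa had an adjusted p of 0.058, and passed without the 6 alike libraries (0.035), under DESeq2 (0.0074), with upper-quartile scaling (0.039) and without any 1 of clones bulk_6419c5, bulk_6422c1, bulk_6499c4 and bulk_6555c3 (0.035 to 0.048). Erbb2 (0.16), Egfr (0.27) and Nrg1 (0.34) were not called.

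Of the clones with a phenotype, Hbegf, on chromosome 18, was highest in bulk_6694c2, bulk_6556c3 and bulk_6556c4. Clone bulk_6694c2 (low) had 239.6 and 486.6 CPM in its tumours 1 and 2, clone bulk_6556c4 (high) had 216.4 and 294.2 CPM, and clone bulk_6556c3 (low) had 308.3 and 255.2 CPM. Of the other tumours with a phenotype, only tumour 3 of clone bulk_2669c4 reached this range, at 216.5 CPM, against 183.0 CPM or less in the rest. Clones bulk_6556c3 and bulk_6556c4 share the number before the letter c, whose meaning the labels do not give, but differ in phenotype. The lowest Hbegf of the clones with a phenotype was in clone bulk_6421c2 (high), at 99.55 and 85.84 CPM.

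Areg ran over a wider range. Among tumours with a phenotype, it was highest in tumour 2 of clone bulk_6694c2, at 99.43 CPM, with 52.93 CPM in tumour 1. Clone bulk_6556c4 had 51.58 and 66.83 CPM, intermediate clone bulk_6422c5 46.96 and 59.66 CPM, and the 4 tumours of clone bulk_2669c4 44.99 to 69.00 CPM. At the low end, clone bulk_6421c2 had 15.33 and 10.56 CPM, clone bulk_6555c3 (high) 21.71 and 6.97 CPM and clone bulk_6419c1 (low) 18.68 and 14.29 CPM. These 3 clones and the 4 clones named before them were picked by these values, so their lack of overlap follows from the choice. Both sets hold high and low phenotypes. Clone bulk_2838c3 (high), in neither set, ran from 24.68 to 50.75 CPM. Clone bulk_6556c3 was less even, with 74.88 and 33.23 CPM.

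Ereg and Btc followed a like order of clones. Ereg was 39.19 CPM in tumour 2 of bulk_6694c2 and 28.88 CPM in tumour 2 of bulk_6556c4, against 7.16 CPM in tumour 2 of bulk_6555c3 and 8.05 CPM in tumour 2 of bulk_6421c2. Btc was 133.2 CPM in tumour 2 of bulk_6694c2 and 64.04 to 99.14 CPM in the 4 tumours of bulk_2669c4, against 14.98 CPM in tumour 2 of bulk_6419c1. Among the 34 tumours with a phenotype, Tgfa had the smallest fold range of the ligands. It lay between 39.18 CPM in tumour 2 of bulk_6421c2 and 103.9 CPM in tumour 1 of bulk_7160c2. Skin markers, which include epidermal keratins, summed to at most 82.38 CPM over 6 genes and were highest in tumour 2 of bulk_6694c2. This tumour had the highest Hbegf, Areg, Ereg and Btc of those with a phenotype. Tumour 2 of bulk_6499c4 had the highest skin sum of the high tumours, at 67.35 CPM, beside 24.13 CPM of Areg, 8.67 CPM of Ereg and 39.73 CPM of Btc. The part of skin in these levels was not tested.

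Erbb3 was high in both tumours of clones bulk_7160c2 (199.7 and 167.4 CPM) and bulk_7160c5 (174.4 and 144.5 CPM), which share a number and are labelled high and intermediate. Single tumours of other high clones reached the same range. Tumour 2 had 177.2 CPM in bulk_2838c3, 171.7 CPM in bulk_6620c1, 167.1 CPM in bulk_6421c2 and 145.1 CPM in bulk_6555c3. Among tumours with a phenotype, Erbb3 was lowest in tumour 3 of bulk_2669c4 at 28.64 CPM, although tumour 4 of the same clone had 77.01 CPM. The same clones bulk_7160c2 (154.9 and 161.7 CPM) and bulk_7160c5 (136.7 and 122.6 CPM) were the only ones with Erbb2 above 100 CPM in tumour 1.

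Over the clones, the 5 EGF receptor ligands varied together. The relation was computed on log2 CPM of 15 clones in libraries without liver and heart transcripts, for all 36 pairs of members. Of these, 10 pairs passed an adjusted p of 0.05 (permutation test of Pearson's r, 100000 resamples, Benjamini-Hochberg over the 36 pairs), all positive, and they were the 10 pairs among Areg, Ereg, Hbegf, Btc and Tgfa. The permutation takes the clones as independent, although some of them share the number before the letter c. The share of pairs that pass among all genes was not computed, so the block cannot be called particular to the family. Areg and Ereg, neighbours on chromosome 5, had the highest r of 0.94 (rho 0.911, permutation p 1e-05, the smallest that the resamples can give, adjusted p 0.00018), and r was 0.936 without the 2 clones farthest from the median Areg. Areg and Btc had r = 0.878 (rho 0.85, permutation p 1e-05, adjusted p 0.00018) and 0.915 without 2 clones. Hbegf, which lies on another chromosome, had r = 0.754 with Areg (rho 0.714, permutation p 0.00115, adjusted p 0.0051) and r = 0.809 with Btc (rho 0.825, permutation p 0.00011, adjusted p 0.00099), and without the 2 farthest clones these were 0.693 and 0.659. The lowest of the 10 was Hbegf with Tgfa, at r = 0.693 (rho 0.704, permutation p 0.00362, adjusted p 0.013), which was 0.515 without 2 clones. In all libraries (16 clones) 8 of these 10 pairs passed; Ereg with Tgfa (r = 0.514, adjusted p 0.13) and Btc with Tgfa (r = 0.5, adjusted p 0.14) did not. In all libraries Erbb2 with Erbb3 also passed, at r = 0.81 (rho 0.703, permutation p 0.0001, adjusted p 0.0012), and r was 0.672 without 2 clones. Clones bulk_7160c2 and bulk_7160c5, which share a number, had the highest levels of both genes. In libraries without liver and heart transcripts this pair had r = 0.574 (adjusted p 0.083). Hbegf with Nrg1 gave the only negative call in all libraries, at r = -0.614 (rho -0.388, permutation p 0.0109, adjusted p 0.039), and r was -0.445 without 2 clones.

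**Figure D3:**
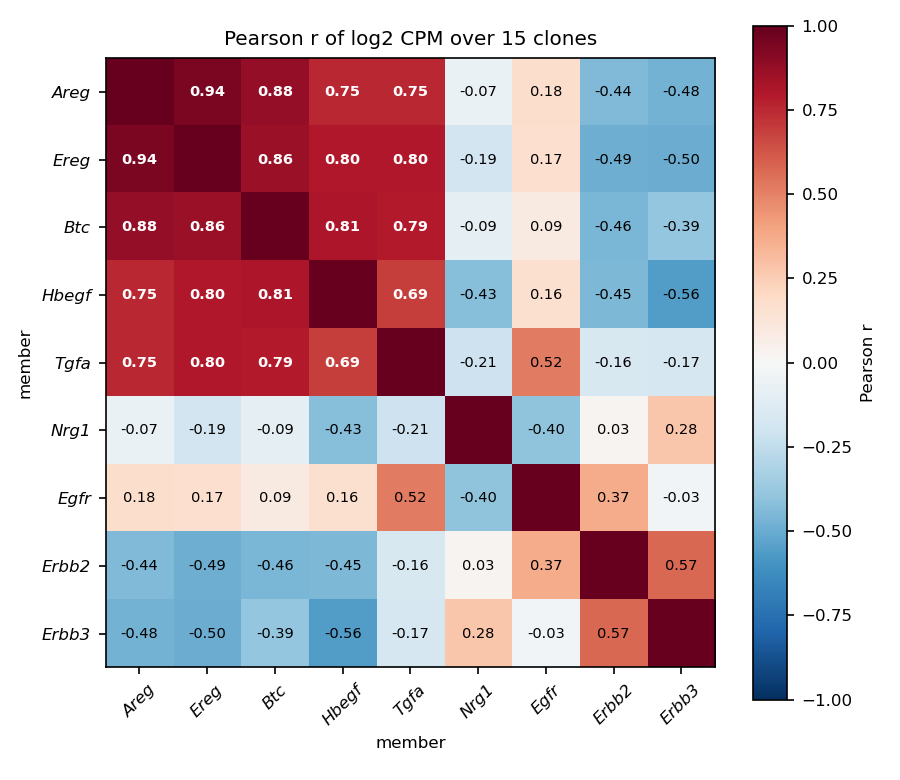
Pearson's r of log2 CPM between each 2 of the 9 members over 15 clones, in libraries without liver and heart transcripts, on a colour scale running between -1 and 1. Bold values passed an adjusted p of 0.05, and they fill the block of the 5 EGF receptor ligands, with r of 0.69 to 0.94.

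The receptors stood outside this block. Egfr had r between 0.087 and 0.521 with the 5 EGF receptor ligands, and none of its pairs passed. Erbb3 varied with the epithelial markers: its r with the mean log2 CPM of the 8 ductal markers over 15 clones was 0.811 (rho 0.739, permutation p 0.00032, adjusted p 0.0029 over the 9 members), and 0.721 without the 2 farthest clones. This relation was chosen after the levels were seen. Erbb2 had r = 0.631 with the same markers (rho 0.575, permutation p 0.0128, adjusted p 0.057) and did not pass.

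**Figure D4:**
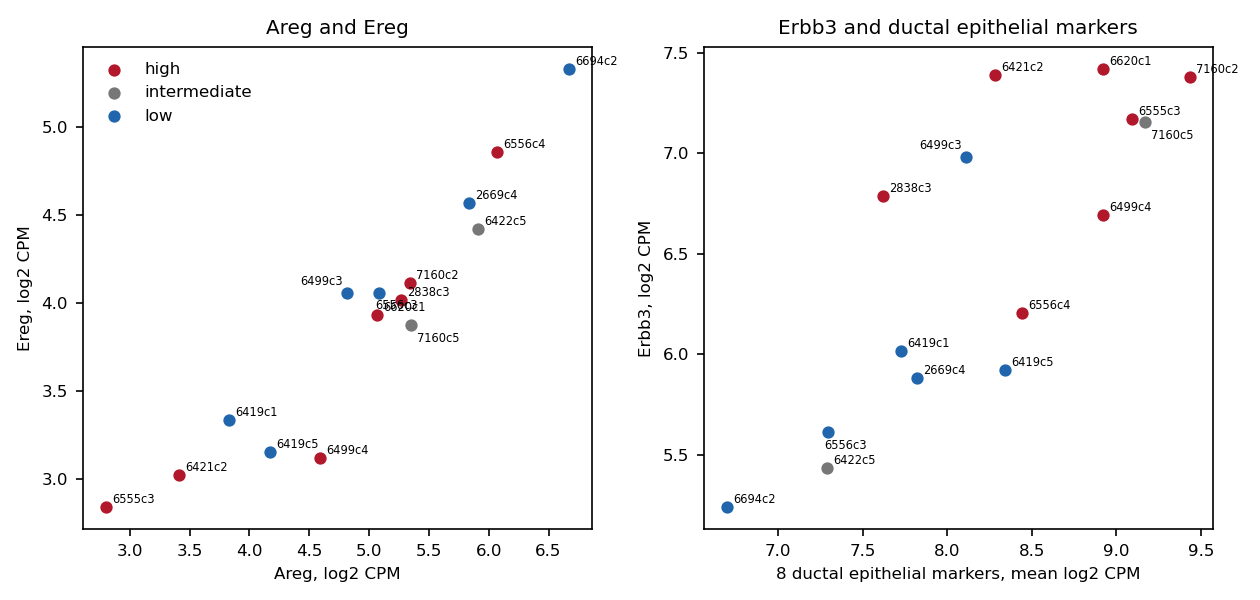
Left, Ereg against Areg, and right, Erbb3 against the mean of 8 ductal epithelial markers, all as log2 CPM with 1 point per clone (15 clones, libraries without liver and heart transcripts), coloured by phenotype. Both rise together, with r = 0.94 on the left and 0.811 on the right, and on the left high and low clones are mixed along the whole range.

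Among 12943 genes with at least 1 CPM, the genes most like each member over the 15 clones were found by Pearson's r of log2 CPM, given as a description. The genes compared share their libraries and depth. Areg was closest to Ereg (0.94), to Cd9 (0.894), a tetraspanin, and to Smarcc1 (0.884), a subunit of the SWI/SNF remodeller. Ereg was closest to Areg, Cd9 (0.915) and Dync1li1 (0.879), and Btc to Nrip1 (0.901), Smarcc1 (0.884) and Areg. Hbegf was closest to Dpysl2 (0.939), Slc25a37 (0.92) and Hist1h2ae (0.902), and Tgfa to the Ras exchange factor Sos2 (0.888), Iqgap1 (0.877) and Zmym2 (0.871). Erbb2 was closest to the kinase Frk (0.909), to Derl3 (0.901) and to Grb7 (0.885), an adaptor whose gene starts 8.7 kb after the end of Erbb2. Erbb3 was closest to the mitochondrial transfer RNA gene mt-Tp (0.917), Fam69b (0.909) and Lpin3 (0.9). Egfr was closest to Zfp689 (0.852), cortactin, Cttn (0.849) and Mill2 (0.844), and Nrg1 to Aifm3 (0.81), Limk1 (0.795) and Chfr (0.779).

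Pathway genes also differed among clones. Of the 40 listed genes 15 were called, against 25.8% of all genes tested. Socs5, an inhibitor that promotes EGF receptor breakdown, had the strongest difference (F 16.6, adjusted p 1.9e-05, edgeR), followed among inhibitors by Lrig3 (F 3.40, adjusted p 0.028). The exchange factor Sos1 (F 7.57, adjusted p 8.9e-04) led the adaptors and Ras genes, of which 5 of 9 were called. Adam12 (F 7.28, adjusted p 0.0011) and Adam9 (F 3.11, adjusted p 0.039), both proteases that can cut Hbegf, were called among 7 genes of ligand release. Of 14 MAP kinase output genes 6 were called, led by the feedback inhibitor Spry2 (F 5.11, adjusted p 0.0053) and the AP-1 subunit Fosl1 (F 4.68, adjusted p 0.0078).

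Within clones, Egfr was higher and Erbb2 lower in tumours numbered 1, which carried the liver and heart transcripts. This comparison called 44.3% of 20421 genes (22.8% higher and 21.5% lower in tumours numbered 1), and 2 of the 9 members. Egfr was higher in tumour 1 than in the mean of the other tumours of the same clone in 15 of 15 clones, with a median ratio of 1.8 and a range of 1.04 to 3.51. Within clone bulk_2669c4, tumour 2, which also held liver and heart transcripts, had 82.23 CPM and tumour 1 had 62.77 CPM. It had 37.66 to 140.2 CPM (median 110.1) in the 16 tumours numbered 1, against 14.04 to 83.64 CPM (median 57.09) in the 18 tumours numbered 2 to 4, so the groups overlap. The log2 difference within clones was 0.89 (SE 0.19, adjusted p 7.6e-04, edgeR). Without the 6 alike libraries it was 0.56 and did not pass (adjusted p 0.10). The 6 alike libraries had 113.9 to 140.2 CPM of Egfr, and in clone bulk_7160c2, which is not among them, tumours 1 and 2 had 83.53 and 80.41 CPM.

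Erbb2 was lower in tumour 1 than in the mean of the other tumours in 14 of 15 clones, with a median ratio of 0.617. It had 46.86 to 154.9 CPM (median 62.18) in tumours numbered 1, against 55.03 to 161.7 CPM (median 117.8) in tumours numbered 2 to 4. The log2 difference was -0.75 (SE 0.14, adjusted p 1.8e-04, edgeR), and it passed also without the 6 alike libraries (-0.73, adjusted p 0.020). Clone bulk_7160c5 was the exception, with 136.7 CPM in tumour 1 and 122.6 CPM in tumour 2. Tumour 2 of bulk_2669c4, which also held liver and heart transcripts, had 55.03 CPM, against 57.61 CPM in tumour 1 and 71.39 and 114.7 CPM in tumours 3 and 4 of that clone.

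The ligands and Erbb3 did not pass in this comparison. Ereg came nearest (0.28, SE 0.12, adjusted p 0.057, edgeR), and passed without the 6 alike libraries (0.39, adjusted p 0.043), with DESeq2 (0.31, adjusted p 0.046), with upper-quartile scaling (0.33, adjusted p 0.027) and without any 1 of clones bulk_6556c4, bulk_6694c2 and bulk_7160c2. The log2 differences of Areg (0.15), Hbegf (-0.13), Btc (-0.02), Tgfa (0.00), Nrg1 (0.27) and Erbb3 (-0.13) had SEs of 0.09 to 0.18. All 4 family genes at low level that passed the expression filter were higher in tumours numbered 1, against 22.8% of all genes called higher. Erbb4, known as a receptor of heart muscle, was higher by 2.98 (SE 0.66, adjusted p 0.0010, edgeR). Egf was higher by 1.06 (SE 0.16, adjusted p 2.6e-05), Nrg4 by 0.82 (SE 0.15, adjusted p 1.4e-04) and Nrg2 by 0.67 (SE 0.27, adjusted p 0.046). These genes were not examined without the 6 alike libraries. Erbb4 was 0.73 to 1.55 CPM in the 6 alike libraries and 0.03 to 1.55 CPM over all tumours numbered 1. It was higher in tumour 1 in 10 of 11 clones with counts on both sides, but lower in bulk_7160c2 (0.03 and 0.186 CPM). Epgn and Nrg3 were below the filter.

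**Figure D5:**
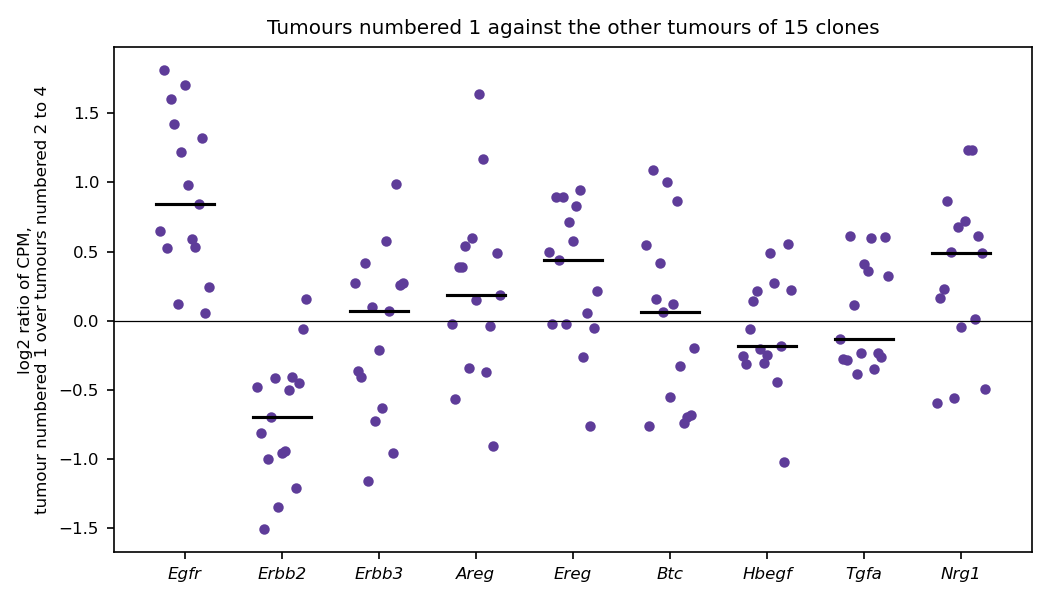
Level of each member in the tumour numbered 1 over the mean of the other tumours of the same clone, as log2 ratio of CPM, with 1 point per clone (15 clones) and a bar at the median. Egfr lies above 0 in 15 clones and Erbb2 below 0 in 14, while the other members lie on both sides.

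Liver markers (6 of 6 found) summed to 506.5 to 10780 CPM in tumours numbered 1 and 2.004 to 5775 CPM in tumours numbered 2 to 4. Heart markers (6 of 6 found) summed to 291.5 to 5438 CPM in tumours numbered 1 and to 12.19 to 3046 CPM in tumours numbered 2 to 4. Fibroblast markers summed to 926.4 to 17020 CPM and 1956 to 22280 CPM in these groups. The highest liver and heart sums in tumours numbered 2 to 4 were those of tumour 2 of bulk_2669c4. In libraries without liver and heart transcripts, heart markers reached 472.1 CPM in high, 270.7 CPM in intermediate and 378.4 CPM in low tumours. Liver markers reached 97.18, 54.92 and 322.1 CPM there. These heart sums overlap those of tumours numbered 1, so the class name rests on its 4 genes only. The part of these cell types in the differences of Egfr and Erbb2 was not tested. A test of whether the effect of tumour number 1 differed between high and low clones called 0% of 20421 genes by edgeR, with 1555 (7.61%) at an unadjusted p under 0.05. For Btc the effect was -0.40 in high clones and 0.43 in low clones, a difference of -0.83 with an unadjusted p of 0.0045 and an adjusted p of 0.64.

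Of the 40 pathway genes 17 were called in tumours numbered 1, against 44.3% of all genes, 6 higher and 11 lower. Of all genes 22.8% were called higher and 21.5% lower. The lists had 4 of 10 inhibitors, 6 of 14 output genes, 4 of 9 adaptors and Ras genes and 3 of 7 release genes called. Each of these shares lies near that of all genes. Without the 6 alike libraries 4229 genes passed by tumour number, against 9052, and pathway genes were not examined there. All 4 called inhibitors of the receptors were higher, led by the ubiquitin ligase Cblb (0.62, SE 0.14, adjusted p 9.4e-04, edgeR) and the kinase inhibitor Errfi1 (0.45, SE 0.09, adjusted p 3.9e-04). All 6 called MAP kinase output genes were lower, led by Phlda1 (-0.67, SE 0.13, adjusted p 3.3e-04) and the Ras pathway inhibitor Spred2 (-0.54, SE 0.08, adjusted p 4.3e-05). Among adaptors and Ras genes Hras (-0.60, SE 0.08, adjusted p 7.5e-06) and Grb2 (-0.59, SE 0.08, adjusted p 1.1e-05) were lower and Sos2 was higher (0.35, SE 0.08, adjusted p 0.0015). The main sheddases Adam10 (-0.60, SE 0.12, adjusted p 5.4e-04) and Adam17 (-0.31, SE 0.07, adjusted p 0.0025) were lower and Adam12 was higher (0.29, SE 0.11, adjusted p 0.040).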

How the data were processed

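RNA of 37 subcutaneous mouse tumours was extracted with a Qiagen kit, made into libraries from 500 ng with an NEB kit and sequenced on an Illumina NextSeq, per the labels' protocols. The deposited table holds raw counts per gene made by the authors, whole numbers with no normalisation judged from the values. The submitters' processing notes name STAR, featureCounts and mm10, while versions, annotation and strand setting were not given in these sources. Of the table's gene identifiers 37607 were found in GENCODE M21 and 1410 were not.

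Counts were summed per clone and tested with edgeR 4.0.16 in R 4.3.3 (TMM scaling, default expression filter, two-sided quasi-likelihood test, 1 coefficient per phenotype). Differences among clones and between tumour numbers were tested per tumour, with 1 coefficient per clone and a term for tumours numbered 1. P-values were adjusted by Benjamini-Hochberg over all genes tested, with a threshold of 0.05. Approximate SEs were the size of each difference over the root of its F. CPM were scaled by TMM, except the liver and heart sum, whose limit was 10 CPM. Relations used log2 CPM with a prior count of 2, and genes named as most alike had at least 1 CPM. Alternatives were DESeq2 1.42.0, limma 3.58.1 with a correlation within clones, other scalings, filters and libraries, and leaving out each clone. The fits were tested on simulated data.

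Named genes were the 9 members, the 6 other family genes, up to 2 called genes per direction of each pathway list (or that of smallest p), and the 3 genes most like each member. Values of 1 pathway gene that this rule names are not reported here. The members and lists were chosen with earlier results of these data known. Tumours share a number but no stated animal or batch. Between phenotypes, deviations of tumours both numbered 1 had a median correlation of 0.31 (over 0.1 in 56 of 77 pairs), of those both numbered 2 0.22 (49 of 68), and of tumours 1 with tumours 2 -0.27 (14 of 145), so tumours with the same number share variation. Not every same-numbered pair was over 0.1, and the number was not used as a block in the main phenotype tests. Those tests sum raw counts per clone, so the weight of tumour 1 differs between clones. Tumours 1 and 2 had 7.39 and 33.31 M counts in bulk_6499c3, and 101.42 and 32.28 M in bulk_7160c2. The phenotype differences over all libraries therefore mix in the tumour number unevenly. Libraries without liver and heart transcripts hold no tumour numbered 1.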

Additional observations from a re-analysis of the deposited data

Results flagged for a closer look

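Among 45 groups of clones or tumours, 4 held a value far from the rest by Dixon's test, which chance gives in about 1 of 20 groups. Egfr was 23.57 CPM in high clone bulk_6421c2 over all libraries, below the other high clones. Erbb3 in low clone bulk_6499c3 was above the other low clones, at 119.6 CPM over all libraries and 126.2 CPM in libraries without liver and heart transcripts. Hbegf in high clone bulk_6556c4 was 294.8 CPM in libraries without those transcripts, above the other high clones.

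The 3 tumours without a phenotype label entered no comparison, and values above every low tumour were found in 2 of them. The tumour of clone bulk_6883c1 had 280.1 CPM of Egfr, against at most 140.2 CPM in low tumours. It is numbered 1 and held liver and heart transcripts (summed level 106.02 CPM). The tumour of clone bulk_7062c3 had 108.9 CPM of Areg, against at most 99.43 CPM in low tumours, and 46.72 CPM of Ereg, against at most 39.19 CPM. No cause of these values was tested.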

How the results depend on the processing

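No member passed between phenotypes under any alternative run, and the calls of Hbegf, Btc, Areg and Ereg among clones and of Erbb2 between tumour numbers held in all of theirs. Counts of genes called over the whole table moved. DESeq2 called 24 genes between high and low, 941 between intermediate and low, 537 between high and intermediate and 9088 among clones, against 0, 0, 0 and 5263. edgeR on tumours, ignoring the clone, called 38, 421 and 4 in the phenotype comparisons, and limma with a correlation within clones called 130 between intermediate and low. With the tumour number as a replicate block this was 15, the block changed no call of a member, and without a term for the number 2468 genes differed among clones. In libraries without liver and heart transcripts 1 gene differed between high and intermediate. Without the 6 alike libraries, an alternative added after seeing the data, 4229 genes differed by tumour number, against 9052. Leaving out 1 clone gave 0 to 567 genes between intermediate and low (480 without bulk_6422c5, 567 without bulk_7160c2, 9 without bulk_6499c3), 0 to 3 between high and intermediate (1 without bulk_7160c2, 3 without bulk_7160c5), 3313 to 5560 among clones (3313 without bulk_7160c5) and 8421 to 9293 by tumour number. These causes were not tested.

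Differences close to 0 changed sign under some alternatives. Between high and low, Egfr was 0.10 without liver and heart libraries, 0.0724 on tumours and 0.0038 with limma. Between intermediate and low, Erbb2 was -0.13 and Ereg -0.10 without those libraries, and Egfr was -0.41, Ereg -0.21 and Nrg1 -0.0286 with those libraries alone. Egfr and Ereg in the same comparison were -0.0254 and -0.0277 with DESeq2, -0.0572 and -0.0663 with upper-quartile scaling and -0.0041 and -0.0224 without a filter. Ereg there was also -0.20 on tumours, -0.0775 with limma, -0.0808 with the replicate block and -0.11 without the alike libraries. Between high and intermediate, Erbb2 was 0.21 and Tgfa -0.0135 without liver and heart libraries, and Egfr was 0.40, Erbb3 -0.11 and Nrg1 0.25 with them alone. Erbb2 there was 0.0394 with upper-quartile scaling and 0.17 without the alike libraries, and Egfr 0.0705 on tumours. By tumour number, Btc was 0.0096 with DESeq2, 0.0336 with upper-quartile scaling and 0.21 without the alike libraries, Tgfa -0.0393 without the alike libraries and Areg -0.10 without a clone term.

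Leaving out 1 clone turned the sign within these ranges. Between high and low, Egfr ran from -0.19 to 0.0739. Between intermediate and low, Egfr ran from -0.32 to 0.24, Erbb2 from -0.22 to 0.65, Erbb3 from -0.61 to 1.26, Ereg from -0.22 to 0.15, Btc from -0.65 to 0.40 and Tgfa from -0.10 to 0.33. Between high and intermediate, Egfr ran from -0.32 to 0.23, Erbb2 from -0.38 to 0.48, Erbb3 from -0.42 to 1.44, Btc from -0.70 to 0.37 and Tgfa from -0.18 to 0.23. By tumour number, Btc ran from -0.0833 to 0.0464 and Tgfa from -0.0403 to 0.0307. Levels per length used exons of all transcripts; with the longest transcript Hbegf had 59.74, Tgfa 13.7, Nrg1 1.16, Egf 0.281 and Nrg4 2.62 CPM per kb.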

Other observations

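The tumour of clone bulk_6883c1, which has no phenotype label, had the highest Egfr of all 37 tumours beside the lowest Erbb3, Areg, Hbegf and Tgfa, at 7.82, 6.31, 59.18 and 7.85 CPM. The tumour of clone bulk_6883c4, which shares its number, had 65.53 CPM of Egfr, 104.1 CPM of Erbb3, 17.63 CPM of Areg, 64.96 CPM of Hbegf and 21.85 CPM of Tgfa. Both tumours are numbered 1 and held liver and heart transcripts, at 106.02 CPM in bulk_6883c1 and 709.47 CPM in bulk_6883c4. The library of bulk_6883c1 was also the deepest, at 161.73 M counts. The tumour of clone bulk_7062c3 had high ligands, with 103.0 CPM of Btc, 416.1 CPM of Hbegf and 88.35 CPM of Tgfa beside its Areg and Ereg. These are single tumours with no repeat.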
